A study of Mus musculus with 16 samples.

Results

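Alternative activation is the state that macrophages enter under interleukin-4 and interleukin-13, and 10 genes commonly read as its markers are described here: Arg1, Retnla, Chil3, Mrc1, Mgl2, Clec10a, Ccl24, Il4ra, Tgm2 and Fcrls. They were chosen by name, and every probe that the platform annotation assigned to one of these symbols was taken. The array table held 11 such probes among 24607, for 9 of the 10 genes, out of 15161 genes with a probe in all, and none carried the symbol Il4ra. Of these 11 probes, 9 probes for 8 genes were bright enough to be tested, among 10534 tested probes in all. The single Chil3 probe and a second Fcrls probe lay below the noise limit on all 12 animal arrays (0 of 6 arrays in each genotype).

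Interleukin-4 and interleukin-13 bind a receptor that contains the interleukin-4 receptor alpha chain, encoded by Il4ra. Janus kinases on the receptor then phosphorylate STAT6, a transcription factor that enters the nucleus and induces a programme of enzymes, lectins and chemokines. In mouse peritoneal macrophages the products of this programme take part in responses to helminths, in tissue repair and in the uptake of glycoproteins. Fcrls, an Fc receptor-like molecule with a scavenger receptor domain, is best known from microglia.

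The RNA came from thioglycollate-elicited peritoneal macrophages of female Apoe-/- mice, which without apolipoprotein E become hypercholesterolaemic. There were 6 SR-uPA+/0 transgenic animals, by the design text overexpressing urokinase plasminogen activator (uPA) in macrophages, and 6 nontransgenic animals. A pool of the RNA of the 6 animals of each genotype was also hybridised on 2 arrays, so 12 animal arrays and 4 pool arrays were available. All mice, of both genotypes, received a Western diet between 5 and 15 weeks of age (10 weeks), the cells were collected 5 days after thioglycollate, and the cells still attached after 2 h of plating were lysed. No group without the Apoe deletion, the diet or thioglycollate was analysed here, and the labels do not spell out the promoter that drives the transgene. Animals are numbered in the order of their records, and the numbers carry no pairing.

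Each array, an Illumina Mouse Ref-8 v1.1 BeadChip, gave 1 linear intensity per probe. A probe was tested if it exceeded a noise limit of about 56.9 intensity units on at least 3 of the 12 animal arrays. Differences are given as transgenic minus nontransgenic on a normalised log2 scale, with limma's standard error (SE) and a p-value adjusted over all 10534 tested probes, called at 0.05. Of the tested probes, 11 passed as higher in transgenic animals (0.104%) and 66 as lower (0.627%), and the median difference over all of them was 0.01. The genotypes had separate ranges, without overlap, for 36 probes that were higher (0.342%) and 77 that were lower (0.731%). Plau, the gene for uPA, read 536 to 2907 units in transgenic and 513 to 3527 units in nontransgenic animals (log2 difference -0.10, SE 0.42, limma adjusted p = 0.967), and directions are therefore those of the labelled genotypes. Among the first 3 principal components of the animal arrays, transgenic 1 was the extreme on the first and the second, and transgenic 6 on the third; they are called the arrays that stand apart. The sources used here do not place the arrays on the chips, and an effect of the chip was not tested.

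Among the 8 tested genes, Mgl2 alone passed the test, and it rose 1.82-fold in transgenic macrophages. The log2 differences of Retnla, Arg1, Clec10a and Ccl24 were also positive, between 0.56 and 0.96, and that of Fcrls was -0.56, none with an adjusted p under 0.05. Mrc1 and Tgm2 had differences of 0.03 and 0.06. At an unadjusted p under 0.05 there were 5 of the 8 genes on the higher side, where 4.03% of all tested probes were, and 1 of 8 on the lower side, where 4.5% were. The median log2 difference of the 8 genes was 0.63, with 7 positive values and 1 negative value. These genes were chosen with earlier results of the same arrays known, so the counts describe them and support nothing further. The arrays measured bulk RNA, in which fewer cells of a type and less RNA per cell cannot be told apart.

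**Figure D1:**
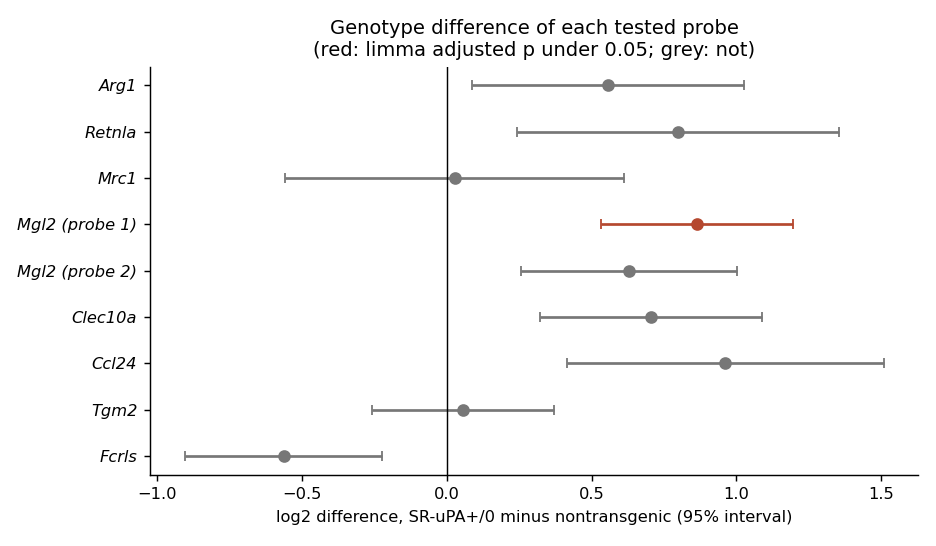
Log2 difference (transgenic minus nontransgenic, x axis) of the 9 tested probes, with 95% intervals from limma over 6 animals per genotype. Mgl2 probe 1, drawn in red at 0.86, is the probe that passed after adjustment, and the intervals of Mrc1 and Tgm2 span 0.

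The C-type lectins of the set are Mgl2 and Clec10a, which encode the macrophage galactose-type lectins, and Mrc1, which encodes the mannose receptor. Mgl2 and Clec10a are neighbouring genes on chromosome 11. Mgl2, also used as a marker of a subset of dermal dendritic cells, read 1465, 2020 and 2660 intensity units (lowest, median and highest) in transgenic animals and 779, 1093 and 1433 in nontransgenic animals. The lowest transgenic animal, transgenic 5, thus lay just above the highest nontransgenic animal, nontransgenic 1, and the genotypes did not overlap. The log2 difference was 0.86 (SE 0.16, limma adjusted p = 0.0126; exact permutation p = 0.00216, the lower bound of this test with 6 animals on each side). It passed in all 12 fits that left out 1 animal, with adjusted p up to 0.0428, but not without transgenic 1 and transgenic 6 together (log2 difference 0.72, adjusted p = 0.0562). A second Mgl2 probe read 729, 783 and 1208 units in transgenic animals and 361, 495 and 911 in nontransgenic animals. On it nontransgenic 1 exceeded all transgenic animals but transgenic 1, and the log2 difference was 0.63 (SE 0.18, limma adjusted p = 0.165). Without nontransgenic 1 this probe passed too (0.77, adjusted p = 0.0229).

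Clec10a, the neighbouring lectin, read 440, 700 and 896 units (lowest, median, highest) in transgenic animals and 211, 404 and 525 in nontransgenic animals. The ranges overlapped, since transgenic 5 at 440 lay below nontransgenic 1 and nontransgenic 3, and all 6 transgenic animals exceeded the nontransgenic mean on the log2 scale. Its log2 difference of 0.70 (SE 0.18) had a limma adjusted p of 0.105 and an exact permutation p of 0.00866. Over the alternatives tried, including the fits without 1 animal, its adjusted p lay between 0.0642 and 0.289.

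Mrc1, whose product takes up mannosylated glycoproteins, read 2149, 6967 and 9193 units in transgenic animals and 4692, 5329 and 9033 in nontransgenic animals. The lowest of all 12 values was that of transgenic 1, while the other transgenic animals lay between 5584 and 9193, so the genotypes overlapped almost wholly. Its log2 difference of 0.03 (SE 0.28; limma adjusted p = 0.987) had a 95% interval of -0.56 to 0.61, and without transgenic 1 it was 0.31.

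**Figure D2:**
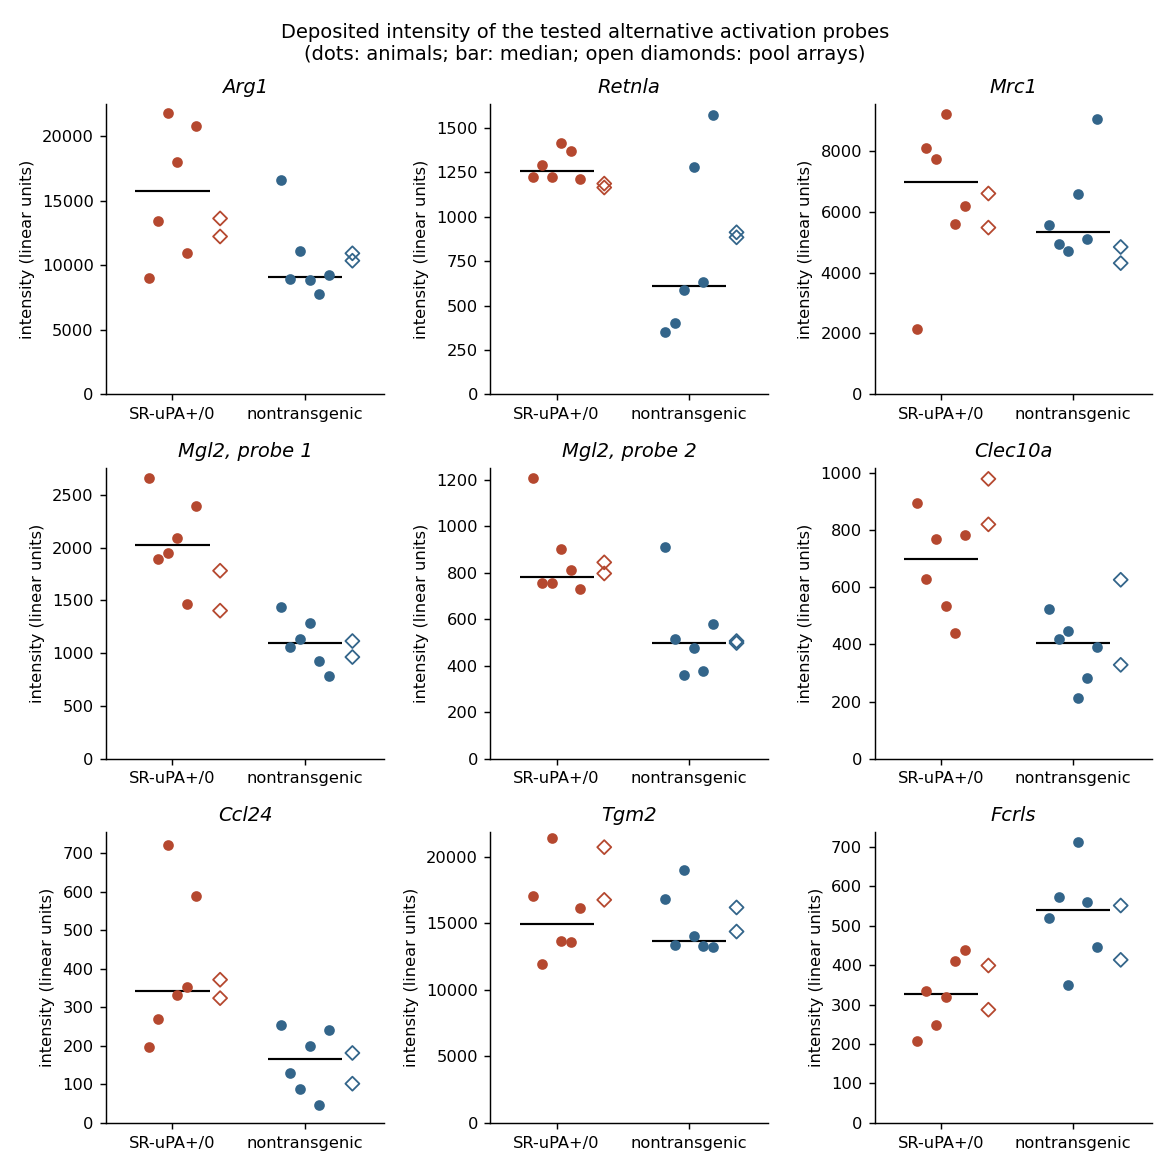
Deposited intensity (linear units, y axes starting at 0) of each tested probe in the 6 SR-uPA+/0 animals (left) and the 6 nontransgenic animals (right). Dots are animals, bars are medians and open diamonds are the pool arrays. Mgl2 probe 1 separates the genotypes (1465 to 2660 in transgenic, 779 to 1433 in nontransgenic), Retnla shows 6 close transgenic values, and transgenic 1 stands low for Mrc1.

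Retnla encodes RELM-alpha, a secreted resistin-like protein strongly induced by interleukin-4 in mouse macrophages, and it lies on chromosome 16 between its relatives Retnlb and Retnlg. It read 1214, 1257 and 1415 units (lowest, median, highest) in transgenic animals and 351, 610 and 1576 in nontransgenic animals. Nontransgenic 4 at 1280 and nontransgenic 6 at 1576 lay within or above the transgenic range, and the other 4 nontransgenic animals lay between 351 and 632, below every transgenic animal. The log2 difference of 0.80 (SE 0.26) did not pass (limma adjusted p = 0.311; exact permutation p = 0.0541).

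The Retnla values lay close together in transgenic animals and far apart in nontransgenic animals. The highest transgenic value was 1.17 times the lowest, and the highest nontransgenic value was 4.49 times the lowest. On the log2 scale the standard deviation was 0.09 in transgenic animals and 0.77 in nontransgenic animals, a ratio of 0.116. Over the 7595 probes that exceeded the noise limit on all 12 arrays the median ratio was 1.18, and that of Retnla was the lowest. The ratio lay between 0.0915 and 0.142 when any 1 animal was left out and between 0.110 and 0.119 under the other settings tried. This contrast was noticed in the values and is given as a description, without a test. For the brightest probes of the other 7 tested genes the ratio lay between 0.893 for Clec10a and 2.13 for Mrc1, and for the second Mgl2 probe it was 0.599.

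**Figure D3:**
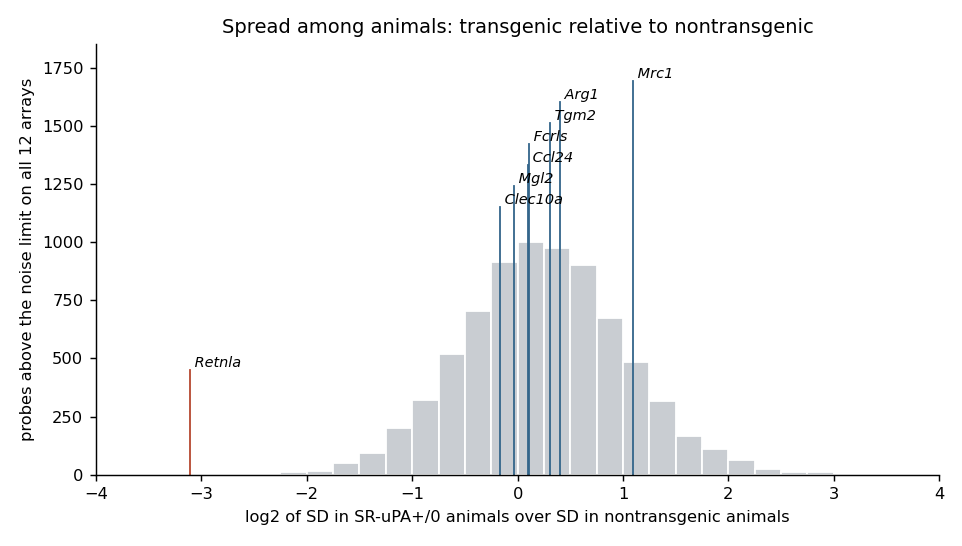
Histogram of the log2 ratio of the standard deviation among transgenic animals to that among nontransgenic animals (x axis) for the 7595 probes that exceeded the noise limit on all 12 arrays (y axis, number of probes), with the tested genes marked by lines whose heights carry no value. Retnla, with a ratio of 0.116, lies at the far left, and the other genes lie within the bulk. Ccl24, marked too, was above the limit on 11 of the 12 arrays and is not among the histogram's probes.

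RefSeq's table (GRCm38.p6) held a window from 250 bases before to 50 bases after the gene start for 6 of the 10 genes: Retnla, Chil3, Mrc1, Mgl2, Il4ra and Fcrls. Each was searched for TTCNNNNGAA, a spacing that STAT6 is known to bind, whose reverse complement is the same motif, so that a match counts for both strands. Retnla held 1 match, whose first base lies 145 bases before the gene start, and the other 5 windows held none. In all, 6.95% of 32851 RefSeq windows of this length held the motif. The related spacing TTCNNNGAA, shared by other STAT proteins and held by 8.30% of windows, occurred once, in Chil3. The windows of Retnla and Mgl2 are printed because Retnla had the lowest spread ratio and Mgl2 was the gene that passed. The capitals mark the match in Retnla, and the Mgl2 window has none. A match describes these letters and shows no binding.
Retnla, chr16:48842359-48842658, plus strand: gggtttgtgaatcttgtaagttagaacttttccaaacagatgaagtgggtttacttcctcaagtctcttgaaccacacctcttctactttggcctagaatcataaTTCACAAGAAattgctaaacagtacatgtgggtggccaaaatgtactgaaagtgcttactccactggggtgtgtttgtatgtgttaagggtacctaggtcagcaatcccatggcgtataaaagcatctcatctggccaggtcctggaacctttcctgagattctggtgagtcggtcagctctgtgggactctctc
Mgl2, chr11:70130107-70130406, plus strand: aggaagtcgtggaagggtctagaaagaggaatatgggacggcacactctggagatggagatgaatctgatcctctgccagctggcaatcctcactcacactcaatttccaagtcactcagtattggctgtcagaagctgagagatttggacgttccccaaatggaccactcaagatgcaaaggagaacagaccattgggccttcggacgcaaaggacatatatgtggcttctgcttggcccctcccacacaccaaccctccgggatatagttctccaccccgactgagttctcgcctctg

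Chil3 encodes the chitinase-like protein Ym1 and is another strong target of interleukin-4 in mouse macrophages. Its probe read from -35.0 to 22.6 units in transgenic animals and from -17.0 to -1.1 units in nontransgenic animals. These values lay below the noise limit throughout, so the probe sets no level, and whether it can detect the transcript was not tested. The relative Chil4, its neighbour on chromosome 3, was tested and differed by 0.18 on the log2 scale (SE 0.19, limma adjusted p = 0.846).

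Arg1 encodes arginase 1, which turns arginine into ornithine and urea and so competes with nitric oxide synthase for its substrate. It read 9025, 15724 and 21795 units in transgenic animals and 7736, 9087 and 16618 in nontransgenic animals. Of the transgenic animals 5 of 6 exceeded the nontransgenic mean on the log2 scale, while transgenic 1 lay among the lower nontransgenic values and nontransgenic 1 among the higher transgenic values. The log2 difference was 0.56 (SE 0.22, limma adjusted p = 0.473; exact permutation p = 0.0584). Tgm2, the cross-linking enzyme transglutaminase 2, read 11935, 14917 and 21357 units in transgenic animals and 13177, 13677 and 18983 in nontransgenic animals. Its ranges overlapped almost wholly, and the log2 difference of 0.06 (SE 0.15; limma adjusted p = 0.950) had a 95% interval of -0.26 to 0.37.

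Ccl24 encodes eotaxin-2, a chemokine that draws eosinophils through the receptor CCR3. It read 196, 342 and 720 units in transgenic animals and 45.6, 166 and 253 in nontransgenic animals. Nontransgenic 5, at 45.6, lay below the noise limit, and the ranges overlapped through transgenic 1 at 196. The log2 difference of 0.96 (SE 0.26) was the largest of the 8 genes, with a limma adjusted p of 0.133 and an exact permutation p of 0.0108. Its size depends on the constant added before taking logs, and it was 1.39 when dim values were instead raised to the noise limit. None of the 7 eosinophil markers with a probe was bright enough to be tested.

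Fcrls ran the other way. Its brighter probe read 207, 327 and 438 units in transgenic animals and 351, 540 and 712 in nontransgenic animals. All 6 transgenic animals lay below the nontransgenic mean on the log2 scale, and the ranges overlapped because nontransgenic 3 at 351 lay below transgenic 5 and transgenic 6. The log2 difference of -0.56 (SE 0.16) did not pass (limma adjusted p = 0.179; exact permutation p = 0.00866). The 95% interval ran from -0.90 to -0.22. The second Fcrls probe read -81.3 to -36.9 units in transgenic animals and -87.9 to 3.3 units in nontransgenic animals, below the noise limit throughout.

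The pools held the RNA of the same animals and were not tested. Mgl2 read 1402 and 1780 units on the transgenic pool arrays and 1114 and 963 on the nontransgenic ones. The first transgenic pool array, at 1402, lay below all 6 transgenic animals and below nontransgenic 1 (1433). Retnla read 1165 and 1187 units in the transgenic pool and 884 and 913 in the nontransgenic pool. Both transgenic Retnla values lay below the lowest of the 6 animals that made up the pool, and both nontransgenic values lay above the mean of their animals (805). Clec10a read 979 and 820 units in the transgenic pool and 328 and 626 in the nontransgenic pool, so the repeats of the nontransgenic pool differed 1.91-fold. Ccl24 read 324 and 371 units in the transgenic pool and 102 and 181 in the nontransgenic pool, where the nontransgenic repeats differed 1.78-fold. Over probes above the limit the median repeat difference on the log2 scale was 0.19 for the transgenic and 0.18 for the nontransgenic pool, and that of Clec10a in the nontransgenic pool was 0.77. Arg1, Mrc1 and Tgm2 averaged 12917, 6036 and 18725 units in the transgenic pool and 10630, 4575 and 15272 in the nontransgenic pool. Fcrls averaged 343 units in the transgenic pool and 483 in the nontransgenic pool.

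Pooled over both genotypes, the within-genotype spread among animals was larger for each of the 8 genes than for most probes. The within-genotype standard deviation on the log2 scale was 0.58 for Mrc1, 0.55 for Retnla, 0.54 for Ccl24 and 0.45 for Arg1, against a median of 0.24 over the 7595 probes above the limit on all 12 arrays. The share of those probes with a lower value was 93.6% for Arg1 and 97.6% for Mrc1, and lay between these for Retnla and Ccl24. Clec10a had 0.35, Fcrls 0.30, the first Mgl2 probe 0.29 and Tgm2 0.27, with shares of 84.7%, 74.2%, 70.3% and 63.1%. For Retnla the pooled value joins unlike standard deviations, 0.09 in transgenic and 0.77 in nontransgenic animals. Ccl24 is not itself among those 7595 probes.

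All 28 pairs of the 8 genes were correlated over the 12 animals, with 100000 permutations and adjustment over the pairs. Arg1 and Ccl24 had a Pearson r of 0.819 (permutation p = 7.6e-04, adjusted p = 0.0175) and a Spearman rho of 0.804 (permutation p = 0.00255, adjusted p = 0.025). Without the 2 animals farthest in Arg1, transgenic 3 and transgenic 6, r was 0.615. With the genotype means removed r was 0.723 (permutation p = 0.0151, adjusted p = 0.242), so the relation did not hold within genotypes after adjustment. Within the transgenic animals r was 0.873 and within the nontransgenic animals 0.520 (exact permutation p = 0.0292 and 0.314).

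Clec10a and Fcrls ran opposite ways, with r = -0.817 (permutation p = 0.00125, adjusted p = 0.0175) and rho = -0.804 (permutation p = 0.00268, adjusted p = 0.025). Without transgenic 1 and nontransgenic 4, the animals farthest in Clec10a, r was -0.623. With genotype means removed r was -0.615 (permutation p = 0.0469, adjusted p = 0.378), which did not pass. The neighbouring lectins Mgl2 and Clec10a also passed over the 12 animals, but the genotypes formed separate clusters in Mgl2, so only values within them are given. Within transgenic animals r was 0.847 and rho 0.829, and within nontransgenic animals r was 0.114 and rho 0.371 (exact permutation p for r = 0.0319 and 0.838). Neither passed after adjustment over the 28 pairs (adjusted p = 0.298 and 0.883), and the difference between the genotypes in r was not tested. Retnla and Mrc1 had r = 0.453 within transgenic and r = 0.822 within nontransgenic animals (exact permutation p = 0.403 and 0.0347, adjusted p = 0.705 and 0.732). Retnla and Clec10a had r = -0.905 and rho = -0.886 within transgenic animals (exact permutation p = 0.0125 and 0.0333, adjusted p for r = 0.298). Within nontransgenic animals they had r = -0.591 and rho = -0.771 (exact permutation p = 0.201 and 0.103, adjusted p for r = 0.732), and neither passed after adjustment. Retnla and Arg1 had r = 0.152 over the 12 animals (permutation p = 0.633), with rho = 0.0979 (permutation p = 0.767). With genotype means removed their r was -0.302 (permutation p = 0.320). Within transgenic and nontransgenic animals it was -0.138 and -0.484 (exact permutation p = 0.775 and 0.349). The canonical interleukin-4 targets Arg1 and Retnla thus showed no relation past the threshold at this number of animals.

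**Figure D4:**
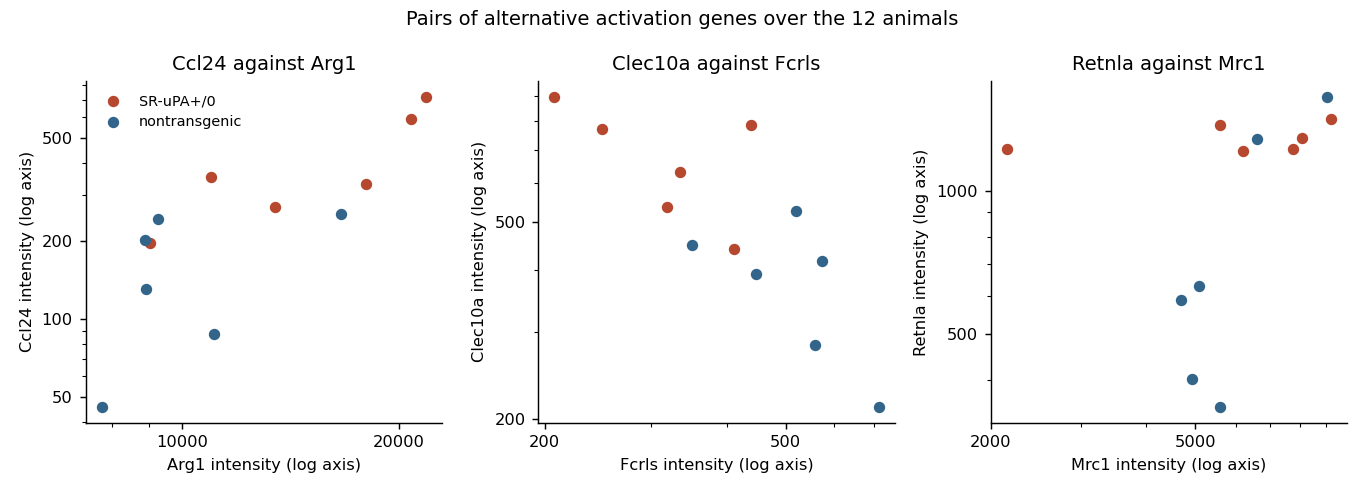
Deposited intensities of 3 pairs of genes over the 12 animals on log axes, with SR-uPA+/0 animals in red and nontransgenic animals in blue: Ccl24 against Arg1 (r = 0.819 on the normalised log2 scale), Clec10a against Fcrls (r = -0.817) and Retnla against Mrc1. In the Retnla panel the 6 transgenic animals lie at nearly the same height, and 4 nontransgenic animals lie below them.

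For Retnla, Arg1 and Mgl2 the 5 genes with the highest r over the 12 animals were taken from 7509 other genes, as a description. Closest to Retnla were Olfr1222 (r = 0.938), Fcna (0.919), Zfp661, Olfr1248 and Nr1d2 (0.882). Fcna encodes a ficolin, a secreted lectin of the complement system, and Nr1d2 a nuclear receptor of the circadian clock. Closest to Arg1 were Pamr1 (0.904), Hsp90b1 (0.873), Map2k4, Tube1 and Pgk1 (0.838). Closest to Mgl2 were Sirt2 (0.913), Pglyrp1 (0.886), Slfn1, Mterf1a and S100a9 (0.852). Pglyrp1 and S100a9, which are abundant in neutrophils, had themselves passed as higher in transgenic animals. With genotype means removed their r with Mgl2 was 0.599 and 0.518, below those of Sirt2 (0.762), Mterf1a (0.754) and Slfn1 (0.733). How high the largest r among 7509 genes runs by chance was not estimated.

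The genes upstream of the set did not pass. Of 12 tested genes of interleukin-4 receptor signalling 0 passed in either direction, with a median log2 difference of 0.08. The smallest p-values belonged to the feedback inhibitor Socs1 (0.40, limma adjusted p = 0.243) and the receptor kinase Jak1 (0.22, adjusted p = 0.755), and Stat6 itself had 0.03 (SE 0.17, adjusted p = 0.977). Of 8 transcription factors of alternative activation 0 passed (median -0.17), the smallest p-values being those of Bhlhe40 (-0.28, adjusted p = 0.532) and Pparg (-0.30, adjusted p = 0.586). At an unadjusted p under 0.05 there was 1 of the 12 signalling genes (Socs1) and 1 of the 8 factors (Bhlhe40). Of all tested probes 4.03% were higher and 4.5% lower at that level.

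Of 9 tested genes among other interleukin-4-induced macrophage genes 0 passed, and 6 of the 9 had negative differences (median -0.04, against 0.63 for the 8 genes of the set). Those with the smallest p were the kinase gene Matk (-0.30, limma adjusted p = 0.528) and the arginine transporter gene Slc7a2 (-0.33, adjusted p = 0.585). Of the 23 genes of that list with a probe, 14 were too dim to test, among them Ccl17, Cd163 and Pdcd1lg2. Of 7 tested genes of arginine and polyamine metabolism 0 passed (median 0.06). Arg2, the mitochondrial arginase, had a log2 difference of 0.83 (SE 0.31, adjusted p = 0.421) and Asl, argininosuccinate lyase, -0.43 (adjusted p = 0.504), while Nos2, the inducible nitric oxide synthase, was too dim to test.

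Of 11 tested genes of classical activation, the state opposed to alternative activation in textbook schemes, 0 passed and all 11 had positive differences (median 0.24). The cytokine gene Il1b had 1.09 (SE 0.33, limma adjusted p = 0.224) and Marcks, a kinase substrate, 0.63 (adjusted p = 0.297). Among 12 tested family relatives of the set 1 passed: Retnlg, the resistin-like gene next to Retnla, rose with a log2 difference of 1.42 (SE 0.23, adjusted p = 0.00622). Retnlg is also a neutrophil marker. At an unadjusted p under 0.05 there were 2 of 9 other interleukin-4-induced genes, 2 of 7 arginine and polyamine genes, 2 of 11 classical activation genes and 4 of 12 family relatives. These counts take both directions together, and of all tested probes 4.03% were higher and 4.5% lower at that level.

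**Figure D5:**
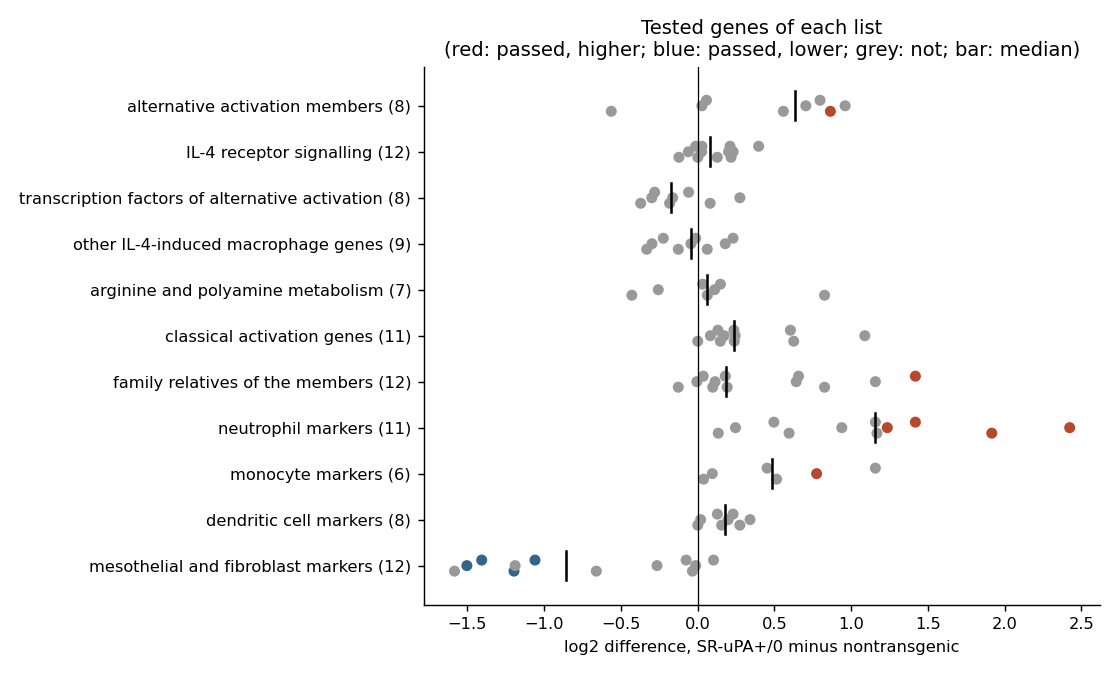
Log2 difference (transgenic minus nontransgenic, x axis) of every tested gene of each list (rows, with the number of tested genes), red where the gene passed as higher, blue where it passed as lower and grey where it did not pass, with the median as a bar. The set's median is 0.63, those of receptor signalling, transcription factors and other interleukin-4-induced genes lie between -0.17 and 0.08, and the neutrophil median is 1.16.

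Markers of other cell types moved with genotype on the same arrays. The mean of 11 tested neutrophil markers was 9.90 in transgenic and 8.83 in nontransgenic animals on the log2 scale (difference 1.07; exact permutation p = 0.00433, adjusted over 9 lists p = 0.013). Their summed intensity ran from 12928 to 46728 in transgenic and from 5094 to 18923 in nontransgenic animals. S100a9, S100a8, the brightest, Retnlg and Pglyrp1 passed as higher, and Elane, Mpo, Ngp and Mmp8 were too dim to test. The other 7 tested genes did not pass, with differences from 0.13 for Camp, 0.25 for Ltf and 0.50 for Mmp9 up to 1.17 for Lcn2. All 11 differences were positive. The mean of 6 monocyte markers was higher by 0.51 (exact permutation p = 0.00433, adjusted p = 0.013), with Cx3cr1 passing at 0.78 and Plac8, the brightest, at 0.51 (limma adjusted p = 0.449). Chil1 (1.16), which is in the neutrophil list too, Treml4 (0.45), Spn (0.10) and Ace (0.04) did not pass. Chil1 exceeded the noise limit on 5 of 6 transgenic and 1 of 6 nontransgenic arrays, and Treml4 on 3 and 1. Both were therefore tested only through the group in which they were higher. Both are part of the monocyte mean, and Chil1 is part of the neutrophil mean too. For 12 tested markers of mesothelial cells and fibroblasts the difference in the mean was -0.74 (exact permutation p = 0.00216, adjusted p = 0.013), with summed intensities of 1431 to 6423 in transgenic and 7527 to 14912 in nontransgenic animals. Col6a1, Col1a1, Col3a1 and Serping1 passed as lower there, and Dcn, the brightest, had -1.58 (limma adjusted p = 0.0666). Col3a1 exceeded the noise limit on 0 of 6 transgenic and 6 of 6 nontransgenic arrays. It was therefore tested only through the group in which it was higher, and it is part of the mean. The mesothelial genes Msln (0.10), Krt7 (-0.01), Krt18 (-0.03), Upk3b (-0.07) and Krt8 (-0.26) did not pass, nor did Wt1 at -0.66 (limma adjusted p = 0.127). The B cell mean differed by 0.23 (exact permutation p = 0.00866, adjusted p = 0.0195; Cd79b, the brightest, 0.76). Ms4a1, Cd22 and Blk had 0.13, 0.03 and 0.01, and none of the B cell genes passed.

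The macrophage mean, with Lyz2 the brightest marker (-0.02), differed by 0.10 (exact permutation p = 0.0952, adjusted p = 0.122); 9 of the 10 macrophage markers with a probe, among them Adgre1, Cd14 and Lamp2, were bright enough to be tested. The means of dendritic cell (H2-DMb2 brightest), mast cell (Cma1), T cell (Il7r) and resident large peritoneal macrophage markers (Cd9) differed by 0.17, -0.19, -0.15 and -0.11 and did not pass (adjusted p = 0.101, 0.37, 0.0662 and 0.387). The resident macrophage mean joins genes that went opposite ways, 6 lower and 3 higher. Gata6 (-0.87), Vsig4 (-0.57), Timd4 (-0.25) and Lrg1 (0.67), 4 of the 9 tested, had an unadjusted limma p under 0.05, and none of the 9 passed. Of all tested probes 4.03% were higher and 4.5% lower at that level.

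How the set ran with 4 of these marker means over the animals was examined in 32 relations, chosen after the marker means were seen. Mgl2 had r = 0.522 with the neutrophil mean and r = 0.684 with the monocyte mean once genotype means were removed (permutation p = 0.102 and 0.0206, adjusted p = 0.249 and 0.181). Clec10a had 0.590 and 0.536 (permutation p = 0.0565 and 0.0806, adjusted p = 0.208 and 0.224). On the same footing Fcrls had r = 0.550 with the mean of the mesothelial and fibroblast markers, and Retnla r = 0.723 with the dendritic cell mean (permutation p = 0.084 and 0.0586, adjusted p = 0.224 and 0.208). The smallest p of the 32 was that of Tgm2, which did not differ by genotype past the threshold, with the neutrophil mean (r = 0.832, permutation p = 0.00273, adjusted p = 0.0874). Retnla and Mrc1 had r = -0.515 and -0.703 with the monocyte mean (permutation p = 0.00954 and 0.0356, adjusted p = 0.153 and 0.181). None of the 32 relations passed with genotype means removed. The part of these other cell types in the differences of Mgl2, Clec10a, Ccl24 and Fcrls was not tested.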

How the data were processed

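RNA of 16 hybridisations to Illumina BeadChips was measured. Intensity values as deposited by the authors, in linear units, were used. The submitters' processing notes name BeadStudio without a version. The values run below 0 and share nearly the same quartiles on every array, so a background had been subtracted and the arrays normalised, by steps that no source used here describes. A second deposited table has 32 columns whose names match no sample's labels, and it was not used.

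Gene symbols came from the platform annotation, which can be old, and 4 control probes were left out. The noise limit of an array was 1.64 times the root mean square of its negative values. Intensities passed through normexp with the saddle method and an offset of 16, in effect an added constant of 96.8 to 97.1 units, then quantile normalisation over the 12 animals and log2. Folds of dim probes are understated on this scale. Genotypes were compared with lmFit and eBayes of limma 3.58.1 (R 4.3.3), two-sided, with Benjamini-Hochberg adjustment. Exact two-sided permutation tests ran over all 924 assignments of the animals for single probes and marker means. The genotype fit was tested on simulated log2 values, and the permutation test on a constructed case with full separation. The background step, normalisation, filter and correlations were not tested in this way. Pool arrays were mapped to the animals' distribution and not tested. Counts of genes and correlations used the brightest tested probe of each gene.

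The members, gene lists and tests were chosen with earlier results of these data known. All 10 members are named. From each pathway list up to 4 genes past the threshold are named, or the 2 with the smallest p, and from each cell type list the brightest gene and up to 4 past the threshold. Stat6, Nos2, Chil4, Plau, further marker genes that did not pass and genes listed as too dim were named after their values were seen. Alternatives covered background, normalisation, filters, variance model, array weights, single animals and the 2 arrays that stood apart. The number of arrays limits the precision, and the p-values measure the spread between these animals.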

Additional observations from a re-analysis of the deposited data

Results flagged for a closer look

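Single arrays were compared with the others of their genotype in 36 groups of 6 arrays, covering the 9 probes and 9 marker means in both genotypes, and 2 stood out. Chance alone picks out about 1 in 20 such groups. For Mrc1, transgenic 1 lay far below the other transgenic animals, with a gap to the nearest of them of 0.65 of the whole range on the log2 scale (2149 units, against 5584 to 9193 in the others). Transgenic 1 also stood apart on the principal components over all probes. For the mean of the neutrophil markers, nontransgenic 1 lay above the other nontransgenic animals, with a gap of 0.627 of the range. The same animal had the highest Arg1, Clec10a, Ccl24 and Mgl2 values of its genotype. It also had the lowest Retnla value (351 units), and its Mrc1, Tgm2 and Fcrls values lay within the range of the others. Its monocyte and resident macrophage means were the highest of its genotype, and its dendritic cell, mast cell, T cell and B cell means the lowest. Whether neutrophil transcripts have a part in the values of these genes was not tested.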

How the results depend on the processing

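Under the 22 alternative settings, the differences of Arg1, Retnla, Clec10a, Ccl24 and Fcrls kept their direction and did not pass. Mgl2 passed in 21, with log2 differences of 0.72 to 0.96, the exception being the fit without transgenic 1 and transgenic 6 (adjusted p = 0.0562), in which 0 of the 9 probes passed. Leaving out 1 animal gave 1 or 2 passing probes of the set. The sign of Mrc1 turned in 6 of 12 such fits (-0.10 to 0.31), and that of Tgm2 in 1 of 12 (-0.032 to 0.14) and without transgenic 1 and transgenic 6 (-0.014). The number of probes of the set at an unadjusted p under 0.05 stayed between 6 and 7, an alternative added after the data were seen, as was the range of the Retnla spread ratio. Over all probes, the count of higher calls was 7 without a filter on dim probes, 5 with only probes above the limit on all 12 arrays and 7 without transgenic 1 and transgenic 6, and it ran from 6 to 15 when 1 animal was left out. The count of lower calls was 35 without the filter and 28 with the stricter one, and ran from 35 to 78 when 1 animal was left out. The stricter filter tests fewer probes, and it drops Ccl24. With genotype means removed, the correlations of the set were 0.723, -0.615 and 0.455 for Arg1 with Ccl24, Clec10a with Fcrls and Mgl2 with Clec10a, none past the threshold. The marker means of neutrophils, monocytes and of mesothelial cells and fibroblasts passed under all 22 settings, and the B cell mean did not pass without transgenic 1 and transgenic 6 (adjusted p = 0.0536). The filter settings left the makeup of these means unchanged, so Chil1, Treml4 and Col3a1 stayed in them. The T cell and ILC2 mean rests on Il7r, Cd2 and Rora alone. The other 6 genes of that list with a probe, among them Cd3d, Cd3e, Cd3g and Cd4, were too dim to test. That mean passed with values raised to the noise limit (adjusted p = 0.0429), with cyclic loess (0.039), without transgenic 2 (0.0292) and without nontransgenic 1 (0.0341). The dendritic cell mean passed without nontransgenic 6 (0.0234). The causes of these changes were not tested beyond the construction of each setting.

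No paired analysis was possible because the animals' numbers only follow the order of records and the labels' shared numbers belong to repeat arrays of 1 pool per genotype. Signal over background limits Chil3 and Ccl24, and 6 animals per genotype limit all intervals.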
